A study of Homo sapiens with 12 samples.

Results

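Messenger RNA of HEK-293T cells that carried a nuclease effector was compared between cells given a guide against SMARCA4 and cells given a non-targeting (NT) guide. The members are the 6 libraries labelled with the nuclease, 3 for each guide, out of 12 in the series. The other 6 libraries carry a YTHDF2 effector with the same pair of guides and enter here only as a second, separate comparison of those guides. HEK-293T is a line from human embryonic kidney that expresses the SV40 large T antigen. The effector is CIRTS-12, one of a set of proteins assembled from human parts that a guide RNA directs to a chosen transcript, so both groups hold the same effector and differ by label only in the guide. They are called nuclease-NT and nuclease-SMARCA4. The series describes 3 biological replicates per condition. No label gives the plasmids, the way they were introduced, the time of harvest, the cultures or the batches. The p-values therefore measure the spread between these samples, which may be technical, and the guide cannot be told apart from any culture or batch that went with it.

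SMARCA4 encodes BRG1, an ATPase that moves and evicts nucleosomes as the motor of the BAF and PBAF chromatin remodelling complexes. SMARCA2 encodes BRM, the other ATPase that can fill that place, and cells that lose one often depend on the other. The p53 protein switches on genes of cell cycle arrest, repair and death. The large T antigen of these cells binds p53, so p53 targets name a set of genes here and not a measured p53 activity. HIF, the oxygen-sensing factor, switches on glucose uptake and glycolysis when oxygen is low.

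Libraries held 9207196 to 14572824 estimated counts and 23001 to 24873 genes with at least 1 count. EEF1A1 was the most abundant gene in all 6. The HEK-293T lineage list holds kidney progenitor and neuronal genes known from this line. It had 25 of 25 members detected, of which 22 averaged at least 1 CPM. Its summed level was 1450 to 1480 CPM in nuclease-NT and 1570 to 1680 CPM in nuclease-SMARCA4. VIM alone averaged 672 and 759 CPM of these sums. CPM are counts scaled to a common library total by TMM, which sets the scale so that most genes do not shift. Markers of other cell types were near the floor and had overlapping sums in both groups. Of 11 fibroblast markers 10 were detected, with sums of 15.3 to 17.4 and 15.5 to 18.9 CPM, mostly COL1A1, and FAP was at 0. Of 12 blood markers 10 were detected, at 6.41 to 8.36 and 5.58 to 7.11 CPM, with HBB and PTPRC at 0. Liver markers summed to at most 1.23 CPM, with APOC3, SERPINA1 and TTR at 0. Markers of squamous epithelium summed to 6.28 to 7.44 and 6.57 to 7.31 CPM, with KRT5, KRT6A, KRT7 and KRT14 at 0.

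SMARCA4 mRNA did not differ between the guides by more than the spread between replicates. The gene (ENSG00000127616.17, chromosome 19, 10960825 to 11079426, plus strand, GRCh38) was at 228.6, 248.6 and 245.4 CPM with the NT guide and 242.4, 251.8 and 222.3 CPM with the SMARCA4 guide. The lowest and the highest of the 6 values both belonged to nuclease-SMARCA4, so the groups overlapped fully. The means were 240.9 ± 10.7 against 238.8 ± 15.1 CPM (SD, n = 3), with a log2 fold change −0.01, SE 0.057, edgeR adjusted p = 0.934. The 95% interval of the difference ran from −8.92% to 8.02%. An exact permutation test of the CPM values gave p = 0.9 (two-sided, adjusted p = 0.9 over 10 library measures), where 3 against 3 cannot go below 0.1. The sign of this small difference turned when nuclease-NT 2 (0.01), nuclease-NT 3 (0.002) or nuclease-SMARCA4 3 (0.04) was left out. The authors' TPM values for the gene, which divide by transcript length and are not rescaled between libraries, averaged 138.8 and 124.2. Counts scaled from TPM gave a log2 fold change of −0.04, again not called.

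The transcript models of SMARCA4 gave the same picture. SMARCA4-219, annotated with a retained intron, was at 86.8 ± 6.29 against 84.8 ± 4.96 CPM, and the coding model SMARCA4-204 at 60.7 ± 9.13 against 61.1 ± 10.1 CPM (SD, n = 3). The coding model SMARCA4-201 took 45.3, 47.0 and 73.5 CPM with the NT guide and 37.6, 49.95 and 33.8 CPM with the SMARCA4 guide, groups that overlap (edgeR unadjusted p = 0.12). Reads of this gene are divided among models that share most of their bases, and the coding model SMARCA4-205 ranged from 0 to 31.0 CPM within nuclease-SMARCA4. The smallest p among them belonged to SMARCA4-208, an intron-retaining model at 1.34 against 0.473 CPM (edgeR unadjusted p = 0.0338, adjusted p = 0.742). Of 40426 transcripts tested in these 6 libraries, 0 were called (0.0%) by edgeR and 2498 (6.18%) had an unadjusted p below 0.05.

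The list of 29 BAF and PBAF subunits, which holds SMARCA4 itself, differed little between the guides. Among all genes, 3.57% passed a Benjamini-Hochberg threshold of 0.05 and are termed called here. Of the 29 subunits 0 were, which is near that share in a list this short. The median log2 fold change of the list was −0.01, which is the value of SMARCA4 itself, against −0.003 over all genes. Members ranged from −1.05 to 0.25, and 9 of 29 did not overlap between the guides, against 25.8% of all genes. Their mean deviation from the mean of the 6 libraries was 0.04, 0.03 and 0.03 with the NT guide. With the SMARCA4 guide it was −0.001, −0.05 and −0.05 on the log2 scale, small and without overlap. SMARCA2 was at 29, 26.9 and 26.7 CPM with the NT guide and 27.7, 23.6 and 27.8 CPM with the SMARCA4 guide, values that overlap (log2 fold change −0.07, SE 0.0893, edgeR adjusted p = 0.724, exact permutation p = 0.6). In the authors' TPM, which allow genes to be compared, SMARCA2 averaged 15.9 and 16.9, far below SMARCA4. ARID1B, a DNA-binding subunit of canonical BAF, had the smallest p of the list. It was at 44.2, 44 and 44.2 CPM with the NT guide and 38.4, 35.7 and 36.8 CPM with the SMARCA4 guide, lower in every library (log2 fold change −0.26, SE 0.0679, edgeR adjusted p = 0.0554), and missed the threshold. BRD7, a PBAF subunit, was at 129.2 ± 2.75 against 142.0 ± 1.9 CPM (log2 fold change 0.14, SE 0.048, edgeR adjusted p = 0.126), and SMARCB1, a core subunit, at 210.0 ± 7.54 against 226.4 ± 9.68 CPM (log2 fold change 0.11, SE 0.0514, edgeR adjusted p = 0.249). Of 15 genes reported to need BRG1 in other cell lines 12 were tested and 0 called, against 3.57% of all genes. Of these 12, 7 were at higher and 5 at lower values, with a median of 0.08. Over the alternatives the BAF list had 1 call at most (1 lower with a minimum mean of 5 CPM, 1 higher with no filter on low counts). The list of genes reported to need BRG1 had 1 called higher with DESeq2, limma-voom, a minimum mean of 5 CPM, length and GC trends removed or nuclease-SMARCA4 3 left out, and 2 with no filter. VIM, an intermediate filament gene, was at 650.8, 669.7 and 694.3 CPM with the NT guide and 780.3, 757.2 and 738 CPM with the SMARCA4 guide (log2 fold change 0.18, SE 0.0476, edgeR adjusted p = 0.0597), and KRT8, a keratin gene, at 30.3, 29.9 and 31.7 CPM with the NT guide and 35.7, 38.4 and 36.7 CPM with the SMARCA4 guide (log2 fold change 0.27, SE 0.0739, edgeR adjusted p = 0.0606). Both were higher in each library with the SMARCA4 guide and neither passed. CCND1, the cyclin D1 gene, had a log2 fold change of 0.01. Of 14 tested neighbours of SMARCA4 on chromosome 19, 0 were called, against 3.57% of all genes (median 0.03).

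**Figure D1:**
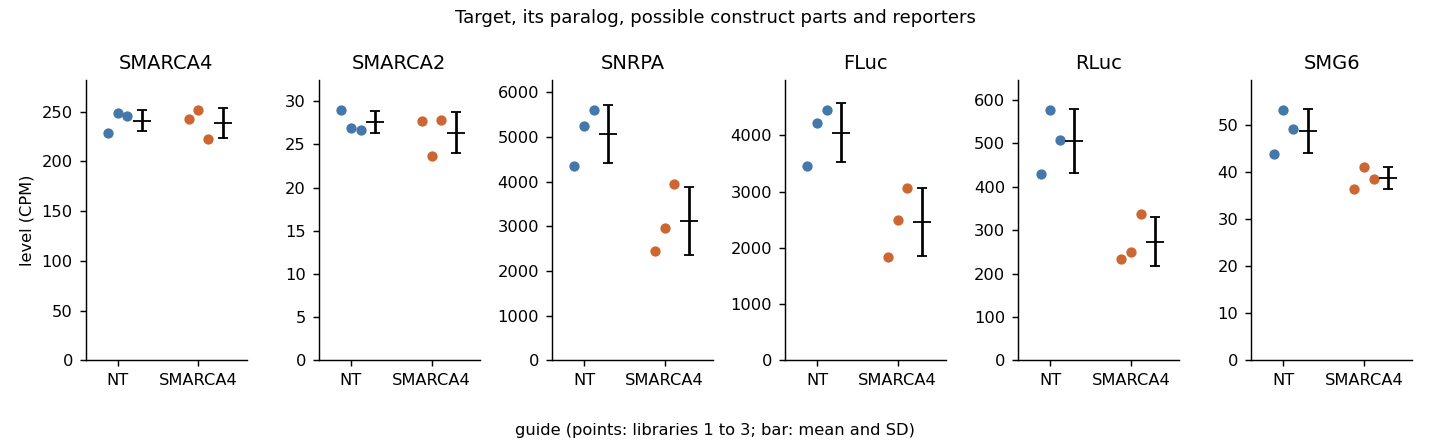
Level of 6 genes in CPM (vertical axes, each from 0) in each library with the NT guide and the SMARCA4 guide, with points for libraries 1 to 3 and bars for the mean and SD. SMARCA4 and SMARCA2 overlap between the guides, while SNRPA, both luciferases (FLuc and RLuc) and SMG6 are lower in every library with the SMARCA4 guide.

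Across all genes, 550 of 15426 (3.57%) were called between the guides by edgeR's quasi-likelihood test. Of these 259 (1.68%) were higher and 291 (1.89%) lower with the SMARCA4 guide. Most differences were small. The median log2 fold change was 0.27 among genes called higher and −0.42 among those called lower. Only 18 called genes were raised and 74 lowered by more than 1.5-fold, and 6 and 25 by more than 2-fold. The groups did not overlap for 3977 genes (25.8%) and for 547 of the 550. The biological coefficient of variation, the spread between replicates beyond counting, was 6.76% in these 6 libraries and 11.4% with the YTHDF2 libraries in the fit. In that fit of 12 libraries 1 gene was called (0.00614%). All 550 genes had the same direction there, which is no separate support, since the fold change still comes from the 6 nuclease libraries. Of them 445 had an unadjusted p below 0.05. DESeq2 called 689 genes, 419 higher and 270 lower, among them 448 of the 550. With the length trend of each library removed 350 were called, 119 higher and 231 lower, among them 310 of the 550.

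The number of calls depended on single libraries. It was 694 without nuclease-NT 1 and 654 without nuclease-SMARCA4 3. It was 15 without nuclease-NT 2, 6 without nuclease-NT 3, 4 without nuclease-SMARCA4 1 and 7 without nuclease-SMARCA4 2. All 550 genes kept their direction and an unadjusted p below 0.05 in each of these 6 fits. These fits reuse libraries in which the 550 were chosen, so this is no separate support for them. Calls of single genes and counts of list members below are thus those of the full set of 6 libraries, and nearly all of them were lost in the 4 fits just named, in the fit of 12 libraries and with length-scaled TPM counts, which called 1 gene.

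**Figure D2:**
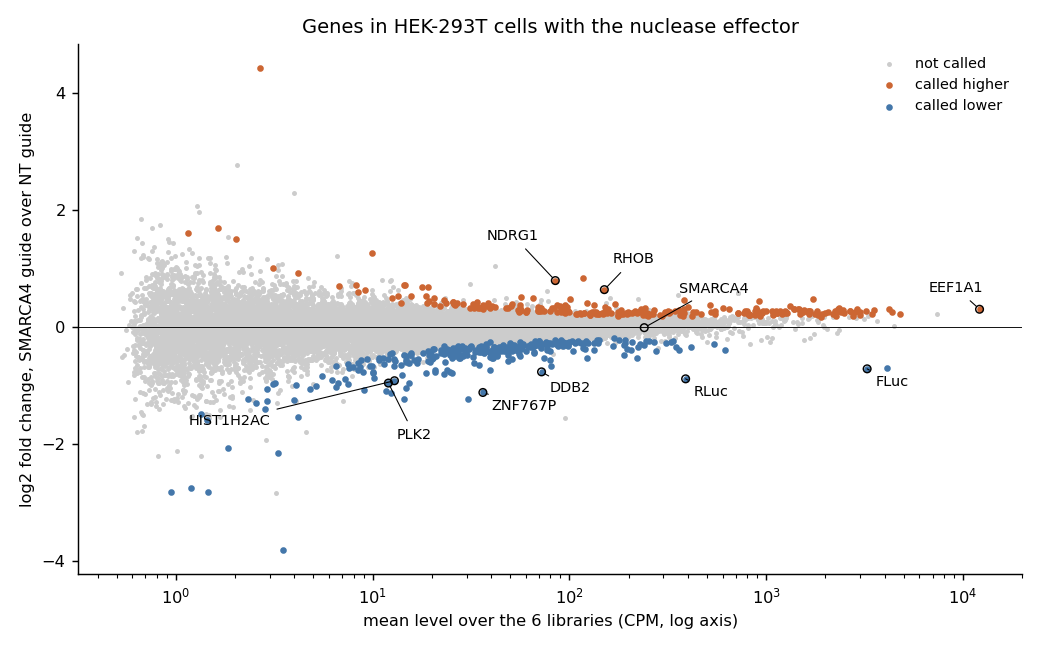
Log2 fold change between the guides, SMARCA4 over NT (vertical axis) against the mean level in CPM over the 6 libraries (horizontal log axis), 1 point per tested gene, with called genes in colour. Genes called higher cluster at high levels and small changes, genes called lower reach further from 0, and SMARCA4 lies on the line of no change.

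Of the 550, 4 were called in all 6 fits that left out a library. NDRG1 (chromosome 8, 133237171 to 133302022, minus strand), a gene induced by hypoxia and cell differentiation, was at 62.3, 58.4 and 65.8 CPM with the NT guide and 118.2, 107.8 and 95.9 CPM with the SMARCA4 guide. Every library with the SMARCA4 guide lay above every library with the NT guide, 1.73-fold on average (log2 fold change 0.79, SE 0.0768, edgeR adjusted p = 0.000639). RHOB (chromosome 2, 20447074 to 20449445, plus strand), an early-response small GTPase of endosomes and actin, was at 125.7, 109.3 and 118.2 CPM with the NT guide and 179.8, 204.1 and 165.2 CPM with the SMARCA4 guide, also without overlap (1.56-fold, log2 fold change 0.64, SE 0.0754, edgeR adjusted p = 0.00434). ZNF767P (chromosome 7, 149547154 to 149624752, minus strand), a pseudogene of a zinc finger gene, was at 42.4, 53.9 and 52.9 CPM with the NT guide and 19.8, 23.6 and 25.2 CPM with the SMARCA4 guide. It was 2.17-fold lower on average (log2 fold change −1.12, SE 0.109, edgeR adjusted p = 0.000639). AC116533.1 (chromosome 11, 16974693 to 16975013, minus strand), a processed pseudogene 321 bases long, was at 92.6, 76.1 and 84.8 CPM with the NT guide and 149, 152.7 and 150.3 CPM with the SMARCA4 guide (log2 fold change 0.84, SE 0.066, edgeR adjusted p = 0.000153). Counts of both pseudogenes can be shared with related genes. In the YTHDF2 cells the same guides gave 0.77 for NDRG1, 0.20 for RHOB, 0.11 for ZNF767P and −0.02 for AC116533.1 on the log2 scale, and 0 genes were called there.

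Sequences that a construct may carry were lower in nuclease-SMARCA4. No label lists the parts, so the list of 8 rests on general knowledge of such effectors and holds SNRPA, SMG6, HBEGF, YTHDF2, a pair of defensin genes and the firefly and renilla luciferases that the files count as extra targets. Of 6 tested members 4 were called lower and 0 higher, against 1.89% of all genes called lower, and the median was −0.51. Renilla luciferase was at 430.0, 577.4 and 507.9 CPM with the NT guide and 232.6, 249.7 and 338 CPM with the SMARCA4 guide, and firefly luciferase at 3459, 4229 and 4455 CPM with the NT guide and 1840, 2495 and 3057 CPM with the SMARCA4 guide. Neither reporter overlapped between the guides (1.85-fold and 1.64-fold lower, edgeR adjusted p = 0.0117 and 0.0244). SNRPA (chromosome 19, 40750637 to 40765389, plus strand), which encodes an RNA-binding subunit of the U1 snRNP, was at 4344, 5241 and 5609 CPM with the NT guide and 2460, 2968 and 3959 CPM with the SMARCA4 guide (log2 fold change −0.69, SE 0.133, edgeR adjusted p = 0.0244). Among its models, the short coding model SNRPA-206 was at 4036 ± 534 against 2470 ± 645 CPM, the non-coding SNRPA-207 at 608.5 ± 106 against 286.3 ± 95.5 CPM and the coding SNRPA-210 at 284.5 ± 18.6 against 236.0 ± 24.7 CPM (edgeR unadjusted p = 0.0148, 0.00631 and 0.0279, none called), while the full-length SNRPA-201 was at 133.2 ± 10.4 against 134.1 ± 11.5 CPM (SD, n = 3). SMG6 (chromosome 17, 2059839 to 2303771, minus strand), which encodes an endonuclease of nonsense-mediated decay, was at 43.8, 53.2 and 49.2 CPM with the NT guide and 36.4, 41.1 and 38.4 CPM with the SMARCA4 guide (log2 fold change −0.33, SE 0.0834, edgeR adjusted p = 0.0455). The reporters together held 0.394, 0.491 and 0.506% of counts with the NT guide and 0.202, 0.265 and 0.337% with the SMARCA4 guide (exact permutation p = 0.1, the smallest possible, adjusted p = 0.2 over 10 measures). The shares did not overlap between the groups, and nuclease-SMARCA4 1 had the least. Reporter RNA thus took a smaller share of counts in every library with the SMARCA4 guide, and its part in the other differences was not tested. Of the 6 genes 1 was called without nuclease-NT 2 and 0 without nuclease-NT 3, nuclease-SMARCA4 1 or nuclease-SMARCA4 2, with medians between −0.61 and −0.41 in fits that left out a library.

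Genes of the p53 network were lower with the SMARCA4 guide. Of 39 tested p53 targets 12 were called lower (30.8%, against 1.89% of all genes) and 0 higher, and 35 had lower values, with a median of −0.32. DDB2 (chromosome 11, 47214465 to 47239240, plus strand), a damage sensor of nucleotide excision repair, was at 76.2, 91.1 and 105.6 CPM with the NT guide and 47.8, 52.3 and 59.8 CPM with the SMARCA4 guide. All 3 values with the SMARCA4 guide lay below those with the NT guide (1.7-fold lower, log2 fold change −0.77, SE 0.106, edgeR adjusted p = 0.0117). PRKAB1, a subunit of the energy-sensing kinase AMPK, was at 80, 91.3 and 91.8 CPM with the NT guide and 56.9, 59.5 and 65.8 CPM with the SMARCA4 guide (log2 fold change −0.53, SE 0.0729, edgeR adjusted p = 0.0117). PPM1D encodes a phosphatase that shuts off the damage response and was at 83.6, 104.2 and 97.1 CPM with the NT guide and 63, 57.1 and 72.3 CPM with the SMARCA4 guide (log2 fold change −0.57, SE 0.0918, edgeR adjusted p = 0.019). The exonuclease gene AEN was at 199.7, 229 and 235.3 CPM with the NT guide and 136.9, 157.8 and 180.2 CPM with the SMARCA4 guide (log2 fold change −0.48, SE 0.087, edgeR adjusted p = 0.0225). PLK2, a stress-induced kinase gene, was the lowest of the list, at 11.9, 18.9 and 16.7 CPM with the NT guide and 7.11, 6.67 and 10.8 CPM with the SMARCA4 guide (log2 fold change −0.96, SE 0.197, edgeR adjusted p = 0.0298). BTG2, an antiproliferative gene, was at 65.2, 84.5 and 78.9 CPM with the NT guide and 54.6, 53 and 61.3 CPM with the SMARCA4 guide (log2 fold change −0.44, SE 0.0906, edgeR adjusted p = 0.0303). None of these overlapped between the groups.

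Other called p53 targets lie outside the rule for naming and were chosen after their values were seen. They were the kinase gene PLK3 (−0.95), the death receptor gene FAS (−0.57), PHLDA3 (−0.53), which restrains AKT, the growth factor gene KITLG (−0.45), ZMAT3 (−0.33), an RNA-binding factor, and MDM2 (−0.32), the ligase that marks p53 for destruction. Among members that were not called, CDKN1A, the cell cycle inhibitor p21, was at 101.6, 108.7 and 108.9 CPM with the NT guide and 86, 105.9 and 102.8 CPM with the SMARCA4 guide (log2 fold change −0.12, SE 0.0733, edgeR adjusted p = 0.395), and BAX, a pro-death gene, had a log2 fold change of −0.09. The best known arrest gene was thus not separated between the guides. The mean deviation of the 39 genes from the mean of the 6 libraries was 0.05, 0.22 and 0.21 with the NT guide and −0.26, −0.15 and −0.06 with the SMARCA4 guide on the log2 scale, so nuclease-NT 1 and nuclease-SMARCA4 3 were the closest pair across the groups. The list median stayed between −0.36 and −0.24 over all alternatives, and with length trends removed 14 were called. The count was 1 without nuclease-NT 2 and 0 without nuclease-NT 3, nuclease-SMARCA4 1 or nuclease-SMARCA4 2.

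The promoters of the list were searched for the p53 half-site, the inverted repeat that p53 binds in pairs, on both strands of the 250 bases before each start. Of 43 promoter entries of the list in the RefSeq table (GRCh38.p14), 6 held a half-site (14.0%), against 4.76% of 15603 entries of tested genes. The list was chosen as known p53 targets, so a larger share follows from that choice. Among entries of called members 3 of 18 held one. The PLK2 promoter is shown as the called member with the lowest fold change (chr5:58460087-58460336, minus strand, 5′ to 3′, half-site in capitals).
PLK2: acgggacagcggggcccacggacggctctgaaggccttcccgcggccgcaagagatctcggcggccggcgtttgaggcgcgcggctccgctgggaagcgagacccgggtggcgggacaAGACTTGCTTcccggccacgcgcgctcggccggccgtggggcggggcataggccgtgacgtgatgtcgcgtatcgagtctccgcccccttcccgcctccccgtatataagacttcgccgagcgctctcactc
A match describes these letters and says nothing about binding in these cells.

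**Figure D3:**
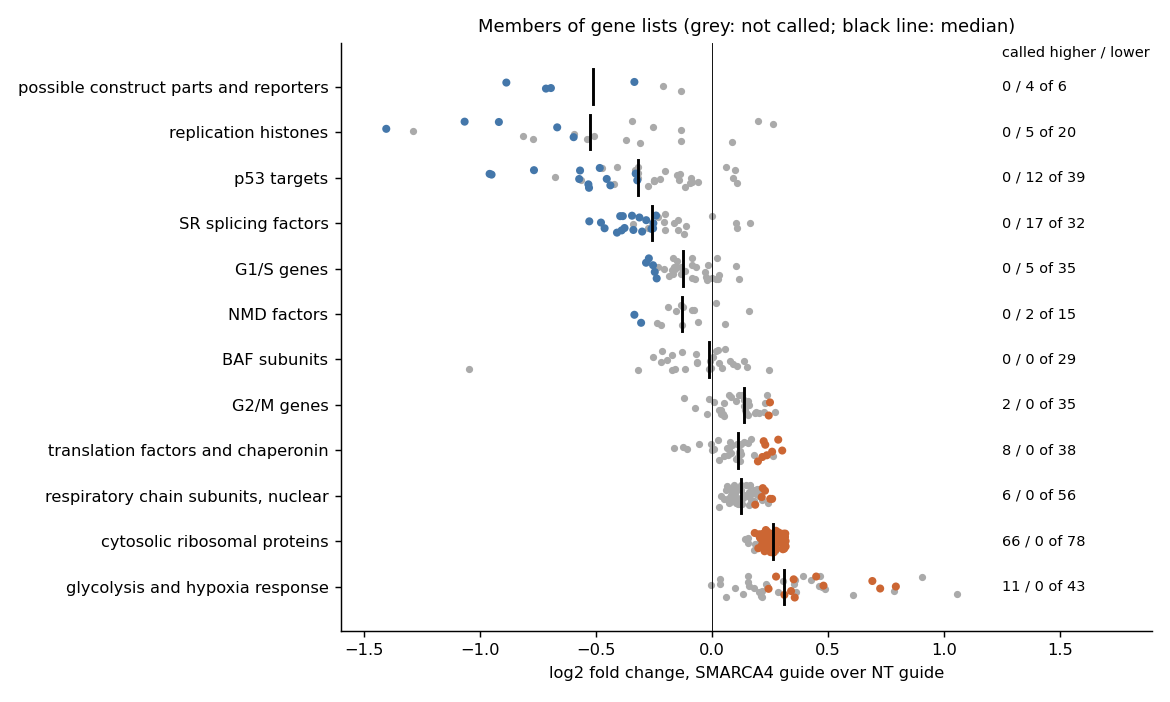
Log2 fold change between the guides, SMARCA4 over NT (horizontal axis) for the tested members of 12 gene lists, 1 point per gene, with called members in colour, the median as a black line and the numbers called at the right. Called members of p53 targets and SR splicing factors lie left of 0, those of ribosomal proteins and glycolysis right of 0, and BAF subunits have 0 called.

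The mRNAs of serine- and arginine-rich splicing factors and their associates held a larger share of calls than any other list of genes called lower, apart from the possible construct parts. SR proteins bind exons and steer the choice of splice sites, and many of their genes adjust their own level through poison exons. Of 32 members 17 were called lower (53.1%, against 1.89% of all genes) and 0 higher, with a median of −0.26. SRSF6 (chromosome 20, 43457928 to 43464247, plus strand), an SR protein gene, was at 220.7, 283.1 and 273.2 CPM with the NT guide and 159.9, 171.1 and 207.7 CPM with the SMARCA4 guide (log2 fold change −0.53, SE 0.0986, edgeR adjusted p = 0.0232). NKTR, which encodes a large SR-like cyclophilin, was at 57.6, 69.9 and 63.9 CPM with the NT guide and 47.7, 42 and 49.4 CPM with the SMARCA4 guide (log2 fold change −0.46, SE 0.0839, edgeR adjusted p = 0.0225), and ARGLU1, an exon-inclusion factor, at 54.5, 57.8 and 62.4 CPM with the NT guide and 41.9, 43.9 and 45.5 CPM with the SMARCA4 guide (log2 fold change −0.41, SE 0.0705, edgeR adjusted p = 0.0204). The helicase gene DDX17 was at 375.7, 462.1 and 391.9 CPM with the NT guide and 323.1, 285.9 and 326.4 CPM with the SMARCA4 guide (log2 fold change −0.40, SE 0.0754, edgeR adjusted p = 0.0244), and SON, a scaffold of nuclear speckles, at 285, 298.9 and 291.4 CPM with the NT guide and 254.2, 236 and 243.8 CPM with the SMARCA4 guide (log2 fold change −0.25, SE 0.0486, edgeR adjusted p = 0.0244). In each of these 5 the highest library with the SMARCA4 guide lay below the lowest with the NT guide. The other 12 called members, among them SRSF1 (−0.28), SRSF2 (−0.34), DDX5 (−0.34) and CLK4 (−0.48), chosen here after their values were seen, lay between −0.48 and −0.24. The 4 members with higher values, CLK2, CLK3, SRSF4 and SRSF9, were not called. The median was between −0.31 and −0.22 over all alternatives, and 17 were called with length trends removed. With nuclease-NT 2, nuclease-NT 3, nuclease-SMARCA4 1 or nuclease-SMARCA4 2 left out 0 were called. The core spliceosome list had 1 of 30 called higher and 1 lower, the latter SNRPA, and a median of 0.03. Models annotated with retained introns held 3.61, 3.78 and 3.67% of counts with the NT guide and 3.54, 3.72 and 3.55% with the SMARCA4 guide, which overlap (exact permutation p = 0.3). Models annotated as targets of nonsense-mediated decay held 3.93, 3.94 and 4.0% with the NT guide and 3.77, 3.82 and 3.86% with the SMARCA4 guide, which do not overlap (exact permutation p = 0.1, the smallest possible, adjusted p = 0.2 over 10 measures).

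Called genes of S phase were lower, and the only 2 called of 35 genes of G2 and mitosis (G2/M) were higher. Replication histone genes supply new chromatin in S phase, and their mRNAs mostly end in a stem-loop in place of a poly(A) tail, so a poly(A) library holds few of them. Of 56 listed 20 passed the filter on low counts, 5 were called lower (25%, against 1.89% of all genes) and 0 higher, and the median was −0.52. With length trends removed 4 were called. HIST1H2AC was at 16.3, 16.5 and 17.8 CPM with the NT guide and 8.22, 8.3 and 10.3 CPM with the SMARCA4 guide (1.89-fold lower, log2 fold change −0.92, SE 0.12, edgeR adjusted p = 0.0109). The linker histone gene HIST1H1C was at 20.9, 26 and 23.5 CPM with the NT guide and 14.9, 13.3 and 18.6 CPM with the SMARCA4 guide (log2 fold change −0.60, SE 0.126, edgeR adjusted p = 0.031). HIST1H2BJ (−1.07), HIST1H4H (−1.41) and HIST3H2BB (−0.67) completed the called members, all at or below 9.3 CPM in each library. Histone genes are near-identical copies, so kallisto may move reads between them, and HIST1H4C, at 0.26, lay on the other side.

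Of 35 G1/S genes 5 were called lower (14.3%, against 1.89% of all genes; 2 with length trends removed) and 0 higher, with 28 at lower values and a median of −0.12. MCM5, a helicase subunit of the replication origin, was at 233.6, 252.4 and 264.2 CPM with the NT guide and 188.1, 217.4 and 210.0 CPM with the SMARCA4 guide (log2 fold change −0.28, SE 0.0631, edgeR adjusted p = 0.033), and CDC6, which loads that helicase, at 197.7, 213.9 and 218.5 CPM with the NT guide and 172.8, 163.3 and 185.6 CPM with the SMARCA4 guide (log2 fold change −0.27, SE 0.0587, edgeR adjusted p = 0.0328). POLA1, the catalytic subunit of DNA polymerase alpha (−0.25), MCM10 (−0.25) and the phosphatase gene CDC25A (−0.24) moved by similar amounts. Of 35 G2/M genes 2 were called higher (5.71%, against 1.68% of all genes; 1 with length trends removed) and 0 lower, with 31 at higher values and a median of 0.14. UBE2C, the ubiquitin-conjugating enzyme of mitotic exit, was at 127.4, 120.6 and 123.8 CPM with the NT guide and 145.7, 155.3 and 141 CPM with the SMARCA4 guide (log2 fold change 0.25, SE 0.0535, edgeR adjusted p = 0.0328), and HMMR, a spindle protein gene, at 124.2, 110.0 and 113.7 CPM with the NT guide and 142.7, 136.7 and 132.8 CPM with the SMARCA4 guide (log2 fold change 0.24, SE 0.0579, edgeR adjusted p = 0.0384). The cyclin gene CCNB1 (0.14, edgeR adjusted p = 0.115), PLK1 (0.16, 0.0867) and AURKA (0.18, 0.0775) were higher in every library and did not pass. MKI67, CENPF, ANLN and ASPM were the 4 at lower values. When nuclease-NT 2, nuclease-NT 3, nuclease-SMARCA4 1 or nuclease-SMARCA4 2 was left out, at most 1 gene of these 3 lists was called. The 3 medians kept their signs in all alternatives. Cell cycle phase was not measured.

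Promoters of G2/M genes are known for a CHR element (TTTGAA) near CCAAT boxes, both searched on either strand. Of 39 promoter entries of the list 19 held TTTGAA (48.7%, against 9.02% of entries of tested genes) and 31 held CCAAT (79.5% against 32.7%). Members were chosen as known G2/M genes, so larger shares follow from that choice. HMMR, the called member with an entry, is shown because it holds both (chr5:163460382-163460631, plus strand, TTTGAA in capitals, with CCAAT or its reverse complement ATTGG in lower case).
HMMR: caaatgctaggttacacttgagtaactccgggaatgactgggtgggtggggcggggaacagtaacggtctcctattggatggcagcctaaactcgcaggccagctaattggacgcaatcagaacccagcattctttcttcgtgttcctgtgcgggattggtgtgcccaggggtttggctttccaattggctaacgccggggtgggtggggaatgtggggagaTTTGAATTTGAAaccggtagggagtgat
The CHR copies lie next to each other near the start.

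Glycolytic and hypoxia-induced genes had higher levels with the SMARCA4 guide, most of all in 1 library. Of 43 tested 11 were called higher (25.6%, against 1.68% of all genes) and 0 lower, with 42 at higher values and a median of 0.31. PGK1 (chromosome X, 77910739 to 78129296, plus strand), the kinase that makes ATP in glycolysis, was at 785.2, 782.2 and 760.3 CPM with the NT guide and 1221, 1037 and 919.9 CPM with the SMARCA4 guide. No value overlapped, and nuclease-SMARCA4 1 was the highest (1.37-fold, log2 fold change 0.45, SE 0.0792, edgeR adjusted p = 0.0215). The same library was the highest for the glucose transporter gene SLC2A3, at 10.5, 11.8 and 10.7 CPM with the NT guide and 23.6, 15.9 and 15 CPM with the SMARCA4 guide (1.65-fold, log2 fold change 0.73, SE 0.161, edgeR adjusted p = 0.033). It was also the highest for PFKFB4, which makes an activator of glycolysis, at 15.1, 16.2 and 12.1 CPM with the NT guide and 31.2, 21.3 and 18.2 CPM with the SMARCA4 guide (1.61-fold, log2 fold change 0.69, SE 0.173, edgeR adjusted p = 0.0457), and for NDRG1, described above. Called enzymes of the middle of the pathway had smaller fold changes, with GAPDH at 2578, 2615 and 2576 CPM with the NT guide and 3362, 3397 and 2889 CPM with the SMARCA4 guide (log2 fold change 0.31, SE 0.058, edgeR adjusted p = 0.0227). TPI1 was at 990.5, 971.7 and 943.2 CPM with the NT guide and 1221, 1219 and 1079 CPM with the SMARCA4 guide (log2 fold change 0.28, SE 0.0549, edgeR adjusted p = 0.0275) and PFKP, a phosphofructokinase gene, at 59.4, 59.9 and 63.1 CPM with the NT guide and 83.2, 78.8 and 68.6 CPM with the SMARCA4 guide (log2 fold change 0.34, SE 0.073, edgeR adjusted p = 0.0328). LDHA, the enzyme that makes lactate, was at 1327, 1598 and 1398 CPM with the NT guide and 2480, 1898 and 1656 CPM with the SMARCA4 guide (log2 fold change 0.48, SE 0.113, edgeR adjusted p = 0.0383), and ALDOA (0.35), ENO2 (0.36) and ENO1 (0.24) were also called. These 4 lie outside the rule for naming and were chosen after their values were seen.

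Several classical HIF targets did not separate the groups. VEGFA, the angiogenic factor, was at 29.6, 40.9 and 36.3 CPM with the NT guide and 41.1, 37.9 and 35.3 CPM with the SMARCA4 guide, SLC2A1, the main glucose transporter, at 36.8, 56.6 and 42.8 CPM with the NT guide and 72.3, 45.5 and 43.2 CPM with the SMARCA4 guide, and ADM, a vasodilator peptide gene, at 6.62, 9.3 and 9.58 CPM with the NT guide and 9.55, 8.37 and 8.54 CPM with the SMARCA4 guide. In SLC2A1 and in BNIP3, a mitophagy gene at 75.4, 105.5 and 75.8 CPM with the NT guide and 156, 106.7 and 92.4 CPM with the SMARCA4 guide, only nuclease-SMARCA4 1 stood clear of the NT guide. The mean deviation of the 43 genes was −0.25, −0.06 and −0.19 with the NT guide and 0.43, 0.14 and −0.07 with the SMARCA4 guide on the log2 scale, so the groups overlapped in nuclease-NT 2 and nuclease-SMARCA4 3. The median fell to 0.18 without nuclease-SMARCA4 1 and was 0.42 without nuclease-SMARCA4 3, when 25 were called. With length trends removed it was 0.30, with 8 called. The number called was 4 without nuclease-NT 1 and 1 when nuclease-NT 2, nuclease-NT 3, nuclease-SMARCA4 1 or nuclease-SMARCA4 2 was left out. In the YTHDF2 cells, which share no library with these, the median was 0.21 with 34 of 43 at higher values and 0 called. SLC2A3 (0.83), PFKFB4 (0.51) and NDRG1 (0.77) had log2 fold changes there like those with the nuclease. Other members called with the nuclease did not, with PGK1 at 0.22, PFKP at 0.004, GAPDH at −0.10 and TPI1 at −0.13. CXCR4, a chemokine receptor gene outside the list, was at 11.6, 16.4 and 13.2 CPM with the NT guide and 28, 21.2 and 16.9 CPM with the SMARCA4 guide (log2 fold change 0.68, SE 0.171, edgeR adjusted p = 0.0471, 0.55 in the YTHDF2 cells), again highest in nuclease-SMARCA4 1.

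HIF binds ACGTG or GCGTG, which was searched on both strands, with CACGTG counted once for each strand. Of 68 promoter entries of the list 44 held a match in the 250 bases before the start (64.7%), against 55.1% of entries of tested genes, and in the nearest 100 bases 29.4% did against 31.4%. These shares were near those of tested genes. PGK1 and PFKFB4 are shown for a promoter with several matches and one with a single match (chrX:78103998-78104247, plus strand, and chr3:48556804-48557053, minus strand, matches on either strand in capitals).
PGK1: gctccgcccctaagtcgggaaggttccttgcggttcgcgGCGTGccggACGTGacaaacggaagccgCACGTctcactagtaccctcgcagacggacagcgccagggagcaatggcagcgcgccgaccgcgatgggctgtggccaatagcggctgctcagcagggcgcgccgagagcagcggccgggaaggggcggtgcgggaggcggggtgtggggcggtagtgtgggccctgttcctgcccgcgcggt
PFKFB4: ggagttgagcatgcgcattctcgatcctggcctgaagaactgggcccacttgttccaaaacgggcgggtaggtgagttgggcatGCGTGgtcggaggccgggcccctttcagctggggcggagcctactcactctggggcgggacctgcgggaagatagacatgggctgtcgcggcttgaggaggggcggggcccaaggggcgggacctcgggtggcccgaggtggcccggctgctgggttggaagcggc
PFKFB4 had the larger difference of the pair.

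**Figure D4:**
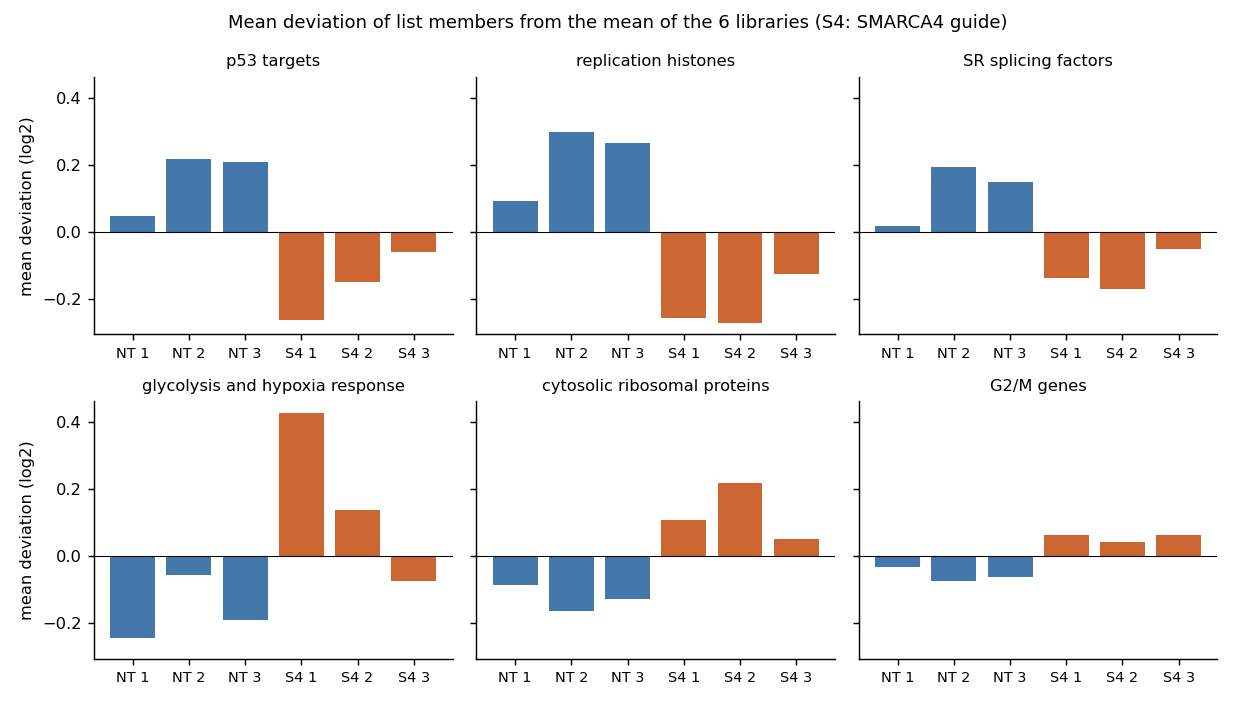
Mean deviation of the members of 6 gene lists from the mean of the 6 libraries (vertical axis, log2), 1 bar per library, with NT 1 to 3 and SMARCA4-guide libraries S4 1 to 3. The groups lie on opposite sides of 0 in 5 lists, while glycolysis and hypoxia genes are below 0 in S4 3 and highest in S4 1.

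Genes of protein synthesis rose together and by little. All 78 cytosolic ribosomal protein genes had higher values with the SMARCA4 guide with no overlap between the groups. Of them 66 were called higher (84.6%, against 1.68% of all genes), with log2 fold changes from 0.14 to 0.32 and a median of 0.26. RPL37A was at 1305, 1265 and 1303 CPM with the NT guide and 1569, 1698 and 1529 CPM with the SMARCA4 guide (log2 fold change 0.31, SE 0.0498, edgeR adjusted p = 0.019), and RPS6, which is phosphorylated when growth signals are on, at 4089, 3837 and 3946 CPM with the NT guide and 4736, 4933 and 4593 CPM with the SMARCA4 guide (log2 fold change 0.26, SE 0.0451, edgeR adjusted p = 0.0204). Together these mRNAs held 11.8, 11.2 and 11.5% of counts with the NT guide and 13.0, 13.9 and 12.7% with the SMARCA4 guide (exact permutation p = 0.1, the smallest possible, adjusted p = 0.2). In the YTHDF2 cells the direction was the other way, with 0 of 78 at higher values and a median of −0.24. Of 38 translation factors and chaperonin subunits 8 were called higher (21.1%, against 1.68% of all genes) and 0 lower (median 0.11), among them EEF1A1, which brings aminoacyl-tRNA to the ribosome, at 11600, 10310 and 10670 CPM with the NT guide and 13860, 13540 and 12800 CPM with the SMARCA4 guide (log2 fold change 0.30, SE 0.0497, edgeR adjusted p = 0.019). EEF1G (0.29), EIF4B (0.24), EIF3F (0.23) and EIF4A2 (0.26) were called too. Of 56 tested nuclear genes for the respiratory chain all had higher values and 6 were called (10.7%, against 1.68% of all genes, median 0.13), with COX4I1 at 431.8, 383.9 and 387.8 CPM with the NT guide and 478.9, 509.7 and 452 CPM with the SMARCA4 guide (log2 fold change 0.26, SE 0.0599, edgeR adjusted p = 0.0361). COX7B (0.22), NDUFA1 (0.23), NDUFB10 (0.21) and COX7A2 (0.25) were the others named by rule. Of 13 mitochondrially encoded mRNAs 0 were called, with a median of −0.06.

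Most of these mRNAs are short, and the libraries differed by transcript length. Across 10579 genes, the deviation of a library from the mean of all 6 ranked with length at a Spearman correlation of 0.27, 0.23 and 0.11 with the NT guide and 0.06, −0.45 and −0.15 with the SMARCA4 guide. These values describe the libraries, since genes are not independent replicates, and they did not overlap between the guides (exact permutation p = 0.1, adjusted p = 0.2). The fold change ranked with length at −0.30. With genes in 5 equal bins of length, 4.73% of the shortest and 0.162% of the longest were called higher, while 1.0% and 2.24% were called lower. With the length trend of each library removed, the ribosomal median was 0.13 with 12 called, the respiratory median 0.05 with 0 called, and the median of the translation factors 0.07 with 5 called. The medians of p53 targets (−0.32), SR splicing factors (−0.27) and glycolysis genes (0.30) moved by 0.02 or less. Of the ribosomal genes 0 were called without nuclease-NT 2, nuclease-NT 3, nuclease-SMARCA4 1 or nuclease-SMARCA4 2. With GC content the libraries ranked at −0.17, −0.14 and −0.03 with the NT guide and −0.14, 0.45 and −0.09 with the SMARCA4 guide, which overlap, and nuclease-SMARCA4 2 stood apart in both trends.

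**Figure D5:**
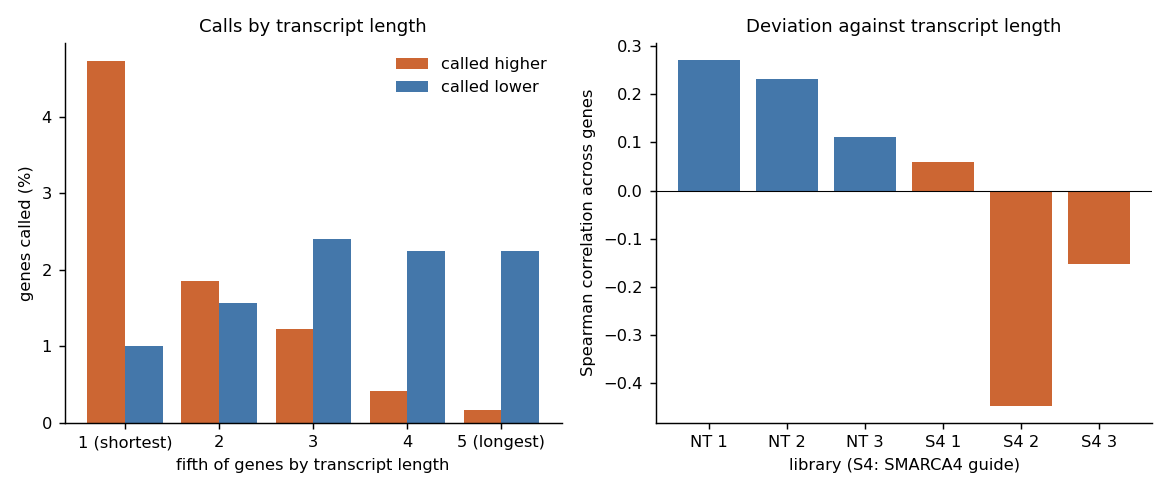
Left, share of tested genes called higher or lower in each of 5 bins of transcript length (percent, bars from 0). Right, Spearman correlation between transcript length and the deviation of each library from the mean of the 6, with NT 1 to 3 and SMARCA4-guide libraries S4 1 to 3: the share called higher falls from 4.73% to 0.162%, and S4 2 lies lowest at −0.45.

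Smaller groups moved within other programmes. Chromatin regulators outside BAF had 6 of 50 called lower (12%, against 1.89% of all genes) and 0 higher (median −0.08). INO80, the ATPase of another remodelling complex, was at 27.6, 28.3 and 28.8 CPM with the NT guide and 19.8, 20.9 and 21.7 CPM with the SMARCA4 guide (log2 fold change −0.44, SE 0.0815, edgeR adjusted p = 0.0227). KMT2D, an enhancer methyltransferase gene, was at 38.1, 33.1 and 30 CPM with the NT guide and 26.4, 25.1 and 20.8 CPM with the SMARCA4 guide (log2 fold change −0.49, SE 0.108, edgeR adjusted p = 0.0328), and the demethylase KDM6A (−0.35), the remodellers CHD2 (−0.31) and HELLS (−0.27) and NCOR1 (−0.27, named as the sixth) were the others. These genes are long, with a median transcript length of 3550 bases for the list, and 4 were called with length trends removed. DNA repair genes had 4 of 48 called lower (DDB2, XRCC1 at −0.33, XRCC2 at −0.37 and RAD52 at −0.52) and 1 higher, the checkpoint kinase gene CHEK2 at 59.7, 51.9 and 52.3 CPM with the NT guide and 64.9, 67.8 and 67.1 CPM with the SMARCA4 guide (log2 fold change 0.28, SE 0.0679, edgeR adjusted p = 0.0391). These are 8.33% and 2.08% of the list, against 1.89% and 1.68% of all genes, and 3 lower and 0 higher were called with length trends removed.

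Genes of the cytoskeleton were called in the other direction, 8 of 47 higher (17.0%, against 1.68% of all genes) and 0 lower, with a median of 0.11. S100A10 and ANXA2 encode the subunits of 1 membrane-binding complex. S100A10 was at 106.3, 101.5 and 108.2 CPM with the NT guide and 148, 141.1 and 128.6 CPM with the SMARCA4 guide (log2 fold change 0.40, SE 0.0599, edgeR adjusted p = 0.0163) and ANXA2 at 144.4, 128.8 and 129.7 CPM with the NT guide and 171, 175.3 and 165 CPM with the SMARCA4 guide (log2 fold change 0.34, SE 0.0562, edgeR adjusted p = 0.019). TPM4, a tropomyosin (0.25), TAGLN2 (0.28) and TUBA1A, an alpha-tubulin (0.33), were called as well, and the same 8 were called with length trends removed. The neurofilament genes NEFM, at 150.3, 146 and 149.2 CPM with the NT guide and 203.6, 204.7 and 173.4 CPM with the SMARCA4 guide (log2 fold change 0.39, SE 0.0629, edgeR adjusted p = 0.019), and NEFL, at 82, 74.3 and 80.1 CPM with the NT guide and 112.1, 102.2 and 89.3 CPM with the SMARCA4 guide (log2 fold change 0.36, SE 0.077, edgeR adjusted p = 0.0312), were the called members of the HEK-293T lineage list. They are 2 of 22 tested members of that list (9.09%, against 1.68% of all genes), of which 13 were at higher and 9 at lower values. INA, another neuronal filament gene of the list, averaged 54.9 CPM with the NT guide and 49.4 CPM with the SMARCA4 guide. Of 12 Notch target genes 2 were called higher, HES1 (0.34) and HES4 (0.43), both repressors of differentiation (16.7%, against 1.68% of all genes), and 0 with length trends removed. Nonsense-mediated decay had 2 of 15 factors called lower, SMG6 and the kinase gene SMG1 (−0.31), and 2 of 23 listed target mRNAs, the snoRNA hosts SNHG12, at 43.8, 54.4 and 48.8 CPM with the NT guide and 26.6, 28.5 and 33.8 CPM with the SMARCA4 guide (log2 fold change −0.73, SE 0.101, edgeR adjusted p = 0.0117), and SNHG15, at 89.1, 103.8 and 104.9 CPM with the NT guide and 51.4, 64.5 and 72.5 CPM with the SMARCA4 guide (log2 fold change −0.66, SE 0.103, edgeR adjusted p = 0.019). These are 13.3% of the factors and 8.7% of the targets, against 1.89% of all genes. With length trends removed 0 factors and 3 targets were called.

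Stress programmes were mostly level. Of 39 targets of the integrated stress response 0 were called (median 0.05), with VLDLR, a lipoprotein receptor gene, nearest at 9.54, 9.85 and 8.41 CPM with the NT guide and 15.2, 14.5 and 11 CPM with the SMARCA4 guide (log2 fold change 0.55, SE 0.141, edgeR adjusted p = 0.0508). The unfolded protein response had 2 of 27 called higher, SEC61B (0.24) and PDIA4 (0.20), and heat shock genes 1 of 23, HSPB1 (0.38). HSPA6, a stress-induced chaperone gene outside that list, was called lower (−1.23) and is described below. Immediate early genes had 1 of 36 called, BTG2, and interferon and RNA sensing genes 1 of 32, HLA-E (0.27). NF-kB targets (18 tested), Wnt targets (15), the proteasome (31), the m6A machinery (20) and glucose-sensing arrestins (6) had 0 called. Cholesterol synthesis (HSD17B7, −0.32), NRF2 targets (TALDO1, 0.25), TGF-beta targets (SKIL, −0.36), YAP targets (FSTL1, 0.23), deadenylation factors (CNOT10, −0.28) and the zinc response (SLC30A1, −0.62) had 1 each. Ribosome assembly had 2 of 31 called lower, POLR1A (−0.31) and NOP58 (−0.37), and autophagy 2 of 39, PRKAB1 and the sialidase gene NEU1 (−0.28). These counts of 1 or 2 genes are read as single genes, since 1 gene is already several percent of a short list, against 1.68% and 1.89% of all genes.

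Besides NDRG1, SLC2A3, PFKFB4, CXCR4 and RHOB, the coding genes with the largest increases among those called were HSD11B1L (0.71), FAM72C (0.71), PTP4A3 (0.70), HSD17B8 (0.63), SLC22A17 (0.59), NME3 (0.54) and BOC, a hedgehog co-receptor gene (0.53). Among coding genes called lower, PLA2G4C, a phospholipase gene, was at 4.73, 6.27 and 5.86 CPM with the NT guide and 2.15, 1.99 and 2.96 CPM with the SMARCA4 guide (log2 fold change −1.25, SE 0.233, edgeR adjusted p = 0.0227), and HSPA6, a stress-induced chaperone gene with close relatives, at 16, 24.7 and 20 CPM with the NT guide and 6.81, 8.02 and 11.4 CPM with the SMARCA4 guide (log2 fold change −1.23, SE 0.187, edgeR adjusted p = 0.0182). MAPK10, which encodes the kinase JNK3, was at 4.65, 3.58 and 3.51 CPM with the NT guide and 1.85, 1.99 and 1.81 CPM with the SMARCA4 guide (log2 fold change −1.06, SE 0.251, edgeR adjusted p = 0.0385), and MCOLN3, a lysosomal calcium channel gene, at 16.6, 20.1 and 17 CPM with the NT guide and 9.77, 9.37 and 11.3 CPM with the SMARCA4 guide (log2 fold change −0.82, SE 0.121, edgeR adjusted p = 0.0163). None of the 4 overlapped between the guides. CCDC180 (−1.53), ZIK1 (−1.23), OVGP1 (−1.08), HIST2H4A (−1.23) and LRRC37A (−1.09) were lower as well, the last pair with near-identical copies in the genome. AC008982.1 was at 5.44, 4 and 10.2 CPM with the NT guide and 0, 1.28 and 0 CPM with the SMARCA4 guide, and AL360181.5 at 1.66, 1.93 and 4.15 CPM with the NT guide and 0.37, 0.638 and 0 CPM with the SMARCA4 guide, so their fitted folds rest on few counts and are not given.

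Non-coding genes and pseudogenes were also among the called. PVT1, a long non-coding RNA next to MYC, was at 28.1, 32.5 and 35.1 CPM with the NT guide and 15.2, 18.9 and 21 CPM with the SMARCA4 guide (log2 fold change −0.79, SE 0.119, edgeR adjusted p = 0.0163), and MYC itself at 91.1, 78.9 and 94.7 CPM with the NT guide and 114.5, 111.2 and 93.3 CPM with the SMARCA4 guide (log2 fold change 0.28, SE 0.0834, edgeR adjusted p = 0.083). Of 227 transcribed unprocessed pseudogenes 18 were called lower (7.93%, against 1.89% of all genes) and 0 higher, with a median of −0.21, ZNF767P, HSD17B7P2 (−1.14) and SMG1P1 (−2.16) among them. Of 301 processed pseudogenes 8 were called higher (2.66%, near the 1.68% of all genes) and 1 lower, with a median of 0.17. With length trends removed 17 of the first kind were called lower and 3 of the second higher, with medians of −0.24 and 0.08. Processed pseudogenes are copies of mRNAs, many of them of ribosomal protein genes, and take up a share of their parents' reads. They held 0.317, 0.323 and 0.312% of counts with the NT guide and 0.382, 0.353 and 0.334% with the SMARCA4 guide. No source used here states whether counting used strand, so antisense genes such as AC008440.2 (1.5) and AC018362.1 (1.02) may share reads with the gene they overlap.

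Set beside the YTHDF2 effector, whose libraries are separate, the guides gave other directions for most called genes. Of the 259 genes called higher with the nuclease 49 (18.9%) had higher values with the SMARCA4 guide in the YTHDF2 cells, against 42.1% of all tested genes with higher values in the nuclease cells. Of the 291 called lower 109 (37.5%) had lower values there, against 45.8%. DDB2 (0.13), PRKAB1 (0.04), SRSF6 (−0.01), HIST1H2AC (0.59) and RPL37A (−0.33) had YTHDF2 values near 0 or of the other sign, and the list medians were 0.05 for p53 targets, −0.03 for SR splicing factors and 0.10 for replication histones. A direct test of the difference between the effectors called 0 of 16297 genes (0.0%) with edgeR, and 1802 (11.1%) had an unadjusted p below 0.05. A difference between effectors was thus not shown for any single gene. The YTHDF2-NT libraries differ widely among themselves, with 10.6 to 15.2% of counts on ribosomal protein mRNAs, and without YTHDF2-NT 2 it called 1444 genes. SMARCA4 had a log2 fold change of −0.22 in the YTHDF2 cells against −0.01 here, and the difference was not called (adjusted p = 0.552).

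Read against the question of a loss of SMARCA4, the measurements were these. Neither SMARCA4 mRNA, its transcript models, SMARCA2, 29 BAF subunits nor 12 genes reported to need BRG1 gave a call in these 6 libraries. The 29 subunits include SMARCA4, so these are not separate measurements. Among all genes 3.57% were called, and 0 of 40426 transcripts, so 0 calls in so few members is near the overall share. BRG1 protein was not measured. Of the 550 called genes 120 lay in the lists of p53 targets, SR splicing factors, glycolysis, ribosomal proteins, replication histones, G1/S genes and possible construct parts, 175 in any of the 44 lists, and 375 in none of them. The 7 lists named here held 39, 32, 43, 78, 20, 35 and 6 of the 15426 tested genes, in that order. All lists were chosen with earlier results known, and the share of tested genes in any of the 44 was not counted. An effect of the guide on these genes and another difference between the cultures cannot be told apart with 1 set of libraries for each guide.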

How the data were processed

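Poly(A) RNA was sequenced from HEK-293T cells with KAPA mRNA HyperPrep libraries, per the labels' protocols. Per the submitters' processing notes the tools were kallisto and sleuth, on hg38. The authors deposited 1 table per library, which holds an estimated count and a TPM value for each of 200403 targets, per the file headers. The strand setting and versions are not given in the sources used here. Kallisto divides reads among transcripts with shared bases, so near-identical genes and plasmid sequences trade counts.

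The transcripts of each of 58288 gene IDs had their estimated counts added up and rounded. The fit used the 6 nuclease libraries, edgeR 4.0.16 in R 4.3.3, TMM scaling, filterByExpr (15426 genes with at least 99.75% of counts), 1 mean per group and 4 residual degrees of freedom. A gene was called when its two-sided p, adjusted by Benjamini-Hochberg across every tested gene, was below 0.05. Transcripts were fitted likewise, and the difference between effectors in all 12 libraries. The scripts were tested on simulated counts. Of 50 genes changed by each fold, 50% were recovered at 1.25-fold, 96% at 1.5-fold and 100% at 2-fold. The changed genes were drawn from genes above a minimum level, so recovery of low-level genes was not tested. No length trend between libraries was simulated. Of 194 calls 21 were in genes not changed, a larger share than the 0.05 aimed at, and 0 were made when no gene was changed. Values for libraries were compared by exact permutation tests (scipy 1.17.1). Alternatives used DESeq2 1.42.0 and limma 3.58.1, other scalings, filters and offsets, a replicate block, and each library left out. Deviations of lists are means of log2(CPM + 0.5). Coordinates are from GENCODE 29 (GRCh38), promoters from RefSeq (GRCh38.p14).

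The members and the 44 gene lists, 43 of them with a tested member, were chosen with earlier results of these data known, so lists are described by counts and medians and were not tested. Named genes were SMARCA4, SMARCA2 and all possible construct parts. Among called genes with a unique symbol, no overlap of the groups and a higher mean of 2 CPM or more, they were the 12 coding genes with the largest increase and decrease, the 10 smallest p-values and the 4 non-coding genes with the largest change in each direction. In each list they were up to 5 called members by p in each direction, or the 2 smallest p-values. A few genes that this rule or a list holds are not reported here.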

Additional observations from a re-analysis of the deposited data

How the results depend on the processing

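The count of 550 called genes was 539 with DESeq2 size factors, 530 with limma-voom, 689 with DESeq2, 791 with a minimum mean of 5 CPM and 531 with length and GC trends removed, the last chosen after seeing the data. It was 350 with the length trend removed, 1398 with no filter on low counts, 1 in the fit of all 12 libraries and 1 with length-scaled TPM counts. Leaving out 1 library gave 4 to 694 calls. The cause was not tested. Of the 550 genes 547 kept their direction with length-scaled TPM counts, and all that were tested did in every other alternative. Every alternative reuses libraries in which these genes were chosen, so a kept direction is no separate support. Transcripts called were 1 in the fit of 12 libraries and 0 otherwise. The difference between effectors called 3 genes with the length trend removed, 493 with no filter and 0 to 1444 with a library left out. The SMARCA4 value turned to 0.00339 with no filter and ranged from −0.0488 to 0.043 with a library left out. In those fits the other values that changed sign ranged from −0.0995 to 0.0117 for SMARCA2, −0.0434 to 0.166 for COL1A1, −0.33 to 0.122 for SFN and −0.562 to 0.472 for HBA1. With length-scaled TPM counts SMARCA2 was at 0.202. Sign changes beside SMARCA4 were thus seen in genes at low levels or not called. Over all named genes and alternatives, 1371 values kept their side of the threshold, 834 lost and 41 gained a call. With replicate numbers as a block 279 genes were called, 89 higher and 190 lower, and 256 of them were among the 550. Same-numbered libraries deviated with correlations of 0.073, −0.1 and 0.12, and not every library correlated best with its own number, so the numbers were not taken as pairs. The library totals limit what can be seen in genes near 1 CPM.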
